A study of Hydra vulgaris with 30 samples.

Results

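In the control polyps of a Hydra head regeneration time course, 103 transcripts were not much below their starting level in the first 12 hours after decapitation and were lower at 24 hours. They were chosen by their measured levels, out of 51290 transcripts in the reference and out of 3325 whose mean in at least 1 control group reached 30 CPM, where CPM is a count scaled to a common total of assigned reads. The change of a transcript is given as log2 of the ratio of 2 group means after 5 CPM were added to each, which understates the change of a low transcript. The rule asked for a DMSO change of -1 or below between 0 and 24 hours postamputation (hpa), for DMSO changes above -0.5 at 3, 8 and 12 hpa, and for every DMSO 24 hpa library to lie below every DMSO 0 hpa library. It also asked that UNC0379 and DMSO differ by less than 1 in size at 0 hpa, at 24 hpa and in the mean of the differences at 3, 8 and 12 hpa. All that is said of these transcripts in the 30 libraries therefore describes values that had a part in their choice, and no test of them is an independent one.

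The study asked what the histone methyltransferase SETD8 does in the regenerating head of Hydra, and inhibited it with the small molecule UNC0379. Polyps of a clonal culture of Hydra vulgaris strain Ind-Pune were decapitated, and tips were taken at once (0 hpa) and after 3, 8, 12 and 24 h. The 10 groups were the 5 times in control polyps with 0.2% DMSO and the same times in polyps with UNC0379, with 3 libraries each. The inhibitor's dose is 150 µM in one label, whereas another gives the same figure in mM. All groups share the strain, the decapitation and the tissue, so that 0 hpa is a cut and not an uncut polyp. Where polyps met the inhibitor before the cut, a later time was also a longer exposure, and the time since decapitation and the length of exposure cannot be told apart.

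A Hydra polyp that loses its head closes the wound, sets up a new head organizer at the cut end with the help of Wnt signalling, and then forms a mouth and tentacles. The tip is a mixture of epithelial cells with cells of the interstitial lineage, such as nerve cells, nematocytes and gland cells. SETD8 places a single methyl group on lysine 20 of histone H4, a mark that has been tied to both active and silent genes. In whole tips, fewer cells of a type and less RNA per cell cannot be told apart.

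None of the identifiers or gene models of the count files was found in the RefSeq gene table used, so the members carry the names of the reference transcriptome only. No function is given to any of them, and neither the tissue nor any cell type could be checked by markers. Of the 103 members, 65 have identifiers of predicted gene models on scaffolds, beginning with Sc4wPfr, and 38 (36.9%) have the assembled-transcript form MSTRG. The MSTRG form made up 23.8% of the 3325 transcripts. Of all 103, 12 members (11.7%) belong to gene models with more than 1 transcript, against 6.5% of the 3325. Reads were counted at the 3′ end of transcripts, and no lengths were used, so CPM of different transcripts are not read as their relative abundance.

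Between 146798 and 811079 reads per library were assigned to transcripts (median 515933), so that 1 count was worth 1.23 to 6.81 CPM. For each assigned read, 1.03 to 1.22 reads were ambiguous and not counted, which can lower transcripts that share sequence. Several libraries stood apart. The DMSO 24 hpa replicate 3 library had 98.2% of its reads unaligned, against 16.5% to 69.0% in the others, although its 625103 assigned reads were above the median. The UNC0379 24 hpa replicate 3 library was the shallowest, with 146798 assigned reads and 48 of the 103 members at 0. The library labelled UNC0379 0 hpa replicate 3 was of ordinary depth, with 648321 assigned reads and 36.7% unaligned, but the levels of the members set it apart from the other libraries of 0 hpa. These levels are described below, and the UNC0379 changes from 0 hpa are given with and without it. Nothing in the labels says whether the libraries of a group are separate cultures, so p-values measure only the spread between libraries.

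The members together showed a plateau and then a step. Beyond the 2 most counted members, which at 0 hpa held more than all the rest, the other 101 summed to 12526, 9162 and 11852 CPM in DMSO replicates 1, 2 and 3 at 0 hpa. They summed to 11750, 10869 and 13443 CPM at 12 hpa, and to 5688, 3953 and 2620 CPM at 24 hpa. The rule's limits at 12 and 24 hpa placed the step between these times, so its timing is not a finding. In these sums the 24 hpa libraries were below all other DMSO libraries. Under UNC0379 the same sum was 13791, 13619 and 12845 CPM at 12 hpa and 2643, 5115 and 3890 CPM at 24 hpa. At 0 hpa it was 12933 and 13094 CPM in UNC0379 replicates 1 and 2, but 3326 CPM in the library labelled replicate 3. That value was 3.94 times below the highest of its group, within the range of the 24 hpa libraries, while the ratio of the highest to the lowest library was 1.07 to 1.25 in all 6 groups of 3, 8 and 12 hpa.

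**Figure D1:**
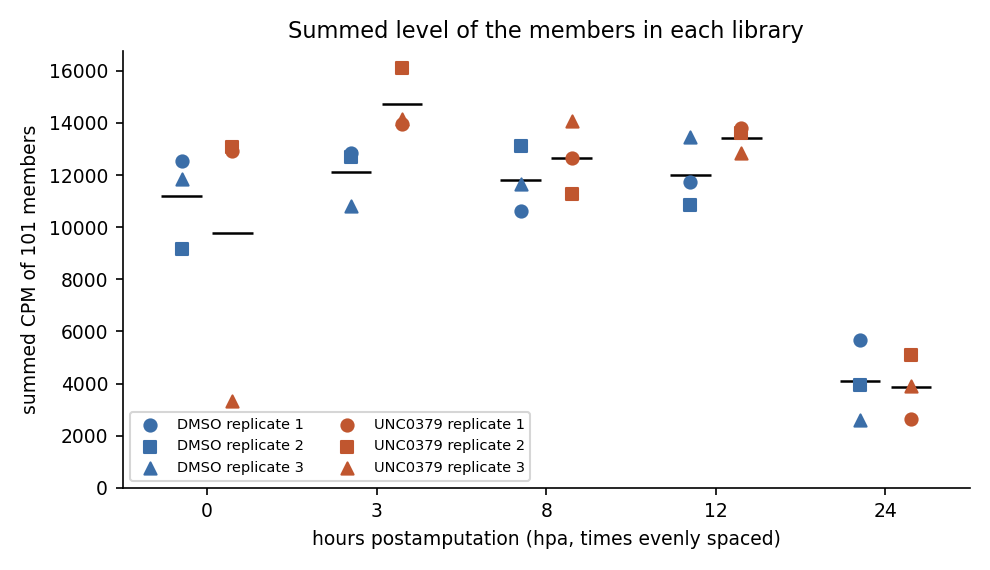
Summed CPM of 101 members (vertical axis, without the 2 most counted) in each of the 30 libraries, by hours postamputation, with a point per library and a black line at each group mean. All libraries of 3, 8 and 12 hpa lie between 10636 and 16097 CPM, the 24 hpa libraries lie between 2620 and 5688 CPM, and the library labelled UNC0379 0 hpa replicate 3 lies at 3326 CPM.

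With the median over members in place of the sum, the DMSO changes from 0 hpa were 0.10, 0.07 and 0.13 at 3, 8 and 12 hpa. At 24 hpa the median was -1.39, with a range of -3.41 to -1.0. The medians over all 3325 transcripts were -0.06, -0.06, -0.04 and -0.13 at the same times. The early plateau was not flat in every member. In 69 members the DMSO mean stayed within 0.5 of that at 0 hpa at 3, 8 and 12 hpa. The other 34 were higher by at least 0.5 at one or more of these times, 13 of them at all of them, and 7 were higher by at least 1 at some time. The rule set no upper limit at these times.

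**Figure D2:**
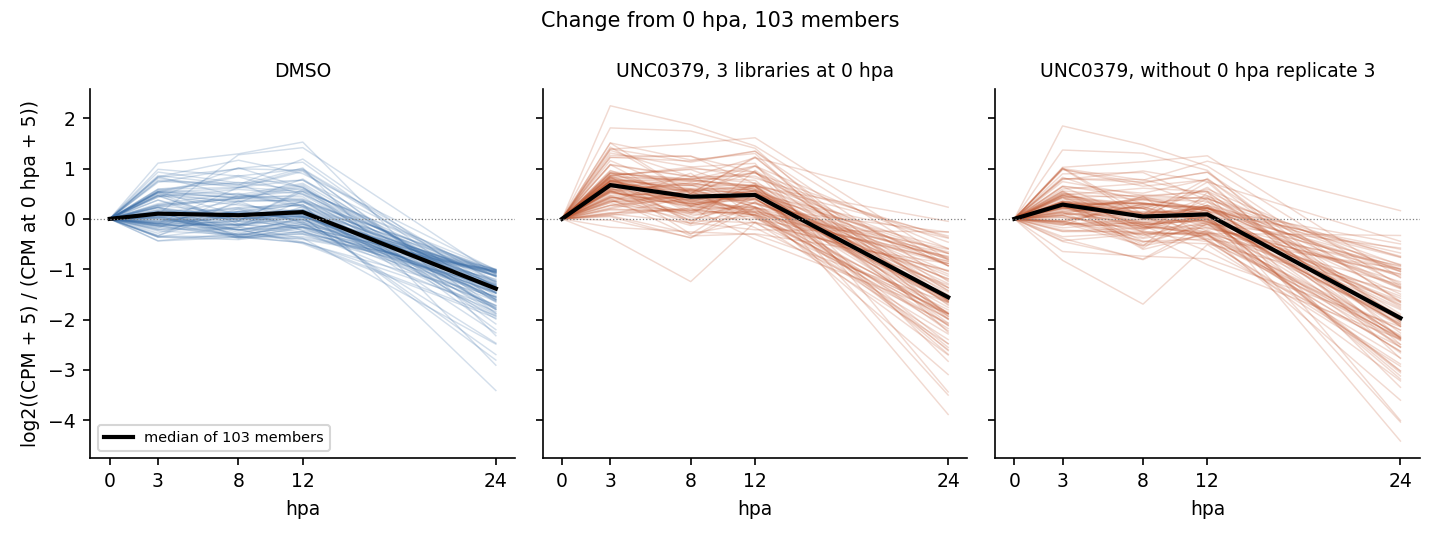
Change of each member from 0 hpa (vertical axis, log2 with 5 CPM added) against hours postamputation, with a thin line per member and a black line at the median of 103 members, for DMSO, for UNC0379 with all libraries and for UNC0379 without the library labelled 0 hpa replicate 3. The DMSO median is -1.39 at 24 hpa, and the UNC0379 median is -1.56 with all libraries and -1.97 without that library.

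The 2 members with the largest DMSO change at 12 hpa, named for that, passed the minimum of 30 CPM only through times after the cut. MSTRG.23620.1 had 36.8, 2.12 and 21 CPM in DMSO replicates 1, 2 and 3 at 0 hpa, 68.2, 28.3 and 104 CPM at 12 hpa and 0, 0 and 0 CPM at 24 hpa. Its DMSO change was 1.52 at 12 hpa and -2.32 at 24 hpa. Replicate 2 was near 0 already at 0 hpa, and there was no count in any DMSO library of 24 hpa. MSTRG.9744.3 had 7.89, 8.46 and 11.2 CPM at 0 hpa, 32.7, 24.2 and 30.8 CPM at 8 hpa and 47.6, 24.5 and 26.4 CPM at 12 hpa. At 24 hpa it had 2.49, 2.24 and 0 CPM, and all its libraries of 8 and 12 hpa were above those of 0 hpa.

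The 6 members with the highest DMSO CPM at 0 hpa had changes at 24 hpa between -1.47 and -1.04. Sc4wPfr_351.g11275.t1, the most counted, had 13975, 9619 and 10728 CPM in DMSO replicates 1, 2 and 3 at 0 hpa, 8828, 8296 and 10850.4 CPM at 12 hpa and 6745, 4511 and 2224 CPM at 24 hpa. Under UNC0379 it had 10367, 11055 and 3637 CPM at 0 hpa, 9105, 9621 and 10865 CPM at 12 hpa and 2082, 5465 and 436 CPM at 24 hpa. Its 24 hpa libraries spread widely in both treatments, with UNC0379 replicate 2 highest and replicate 3 lowest among the UNC0379 libraries. Sc4wPfr_135.g21780.t1 had 12230.5, 7706 and 11363 CPM in DMSO at 0 hpa, 8090.2, 8405 and 8735 CPM at 12 hpa and 7132, 3449.8 and 704 CPM at 24 hpa. Under UNC0379 it had 8873, 9828 and 2230.4 CPM at 0 hpa and 898, 4657 and 1035 CPM at 24 hpa. In both transcripts, UNC0379 replicate 2 was the highest and DMSO replicate 3 the lowest 24 hpa library of its group. The fitted change in DMSO between 0 and 24 hpa, from edgeR, was -1.22 (SE 0.50) for Sc4wPfr_351.g11275.t1 and -1.34 (SE 0.59) for Sc4wPfr_135.g21780.t1. Under UNC0379 it was -1.62 (SE 0.50) and -1.63 (SE 0.59), and -1.96 (SE 0.53) and -2.05 (SE 0.60) without the library labelled 0 hpa replicate 3.

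Sc4wPfr_113.1.g28301.t1 had 779, 569 and 683 CPM in DMSO at 0 hpa, 1099.6, 1036 and 801 CPM at 3 hpa and 864, 765 and 1052 CPM at 12 hpa. At 24 hpa it had 382, 258 and 181 CPM in DMSO and 227, 251 and 381 CPM under UNC0379. The 6 libraries of 24 hpa lay below all DMSO libraries of earlier times, and DMSO and UNC0379 overlapped. Its fitted 24 against 0 hpa change was -1.19 (SE 0.33) in DMSO and -1.58 (SE 0.34) under UNC0379, or -2.04 (SE 0.25) without the library labelled 0 hpa replicate 3. The library labelled UNC0379 0 hpa replicate 3 had 256 CPM of it, against 1234 and 1080.0 CPM in replicates 1 and 2.

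Among the other members with high CPM, MSTRG.7002.1 was at 731, 535 and 524 CPM in DMSO at 0 hpa and at 314, 361 and 186 CPM at 24 hpa. Under UNC0379 it was at 454, 332 and 182 CPM at 0 hpa and at 139.7, 388 and 34.1 CPM at 24 hpa, and these groups overlapped. Sc4wPfr_856.g31462.t1 was at 1738, 1056 and 1556 CPM in DMSO at 0 hpa and at 873, 439.9 and 574 CPM at 24 hpa. Under UNC0379 at 24 hpa its replicates 1 and 2 had 385 and 439.8 CPM, whereas the shallow replicate 3 had 1362 CPM, as high as the 12 hpa libraries. Sc4wPfr_519.g17994.t1 showed the same split, with 126, 320.3 and 668 CPM under UNC0379 at 24 hpa, while DMSO had 472, 628 and 613 CPM at 0 hpa and 396, 260.4 and 163 CPM at 24 hpa. At 12 hpa, UNC0379 libraries had 582, 581 and 656 CPM, so that replicate 3 of 24 hpa lay at the level of the earlier time in this transcript. Its fitted UNC0379 change between 0 and 24 hpa was -0.08 (SE 0.46), or -0.60 (SE 0.36) without the library labelled 0 hpa replicate 3, and in DMSO -0.95 (SE 0.45). UNC0379 24 hpa replicate 3 was above both other libraries of its group in 16 of the 103 members, against 30.2% of the 3325 transcripts.

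The 6 members with the most negative DMSO change at 24 hpa had lower CPM than these 6 at 0 hpa, and few reads at 24 hpa. MSTRG.19593.1 had 187, 57.1 and 112 CPM in DMSO at 0 hpa, 165, 126 and 148 CPM at 12 hpa and 9.97, 6.73 and 3.2 CPM at 24 hpa. Under UNC0379 it had 137, 161 and 144 CPM at 12 hpa and 0, 4.6 and 0 CPM at 24 hpa. The 24 hpa libraries of both treatments were below every 3, 8 and 12 hpa library by a wide margin. Its fitted change between 0 and 24 hpa was -4.09 (SE 0.75) in DMSO and -5.09 (SE 0.97) under UNC0379, or -5.66 (SE 0.59) without the library labelled 0 hpa replicate 3. In the library labelled UNC0379 0 hpa replicate 3 it had 6.17 CPM, against 136 and 132 CPM in replicates 1 and 2.

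MSTRG.24170.1 had 249.7, 150.2 and 164 CPM in DMSO at 0 hpa, 335, 252 and 565 CPM at 12 hpa and 32.4, 20.2 and 9.6 CPM at 24 hpa. Under UNC0379 it had 376, 291 and 3.08 CPM at 0 hpa, 462, 549 and 446 CPM at 12 hpa and 11.4, 36.8 and 0 CPM at 24 hpa. It was 1 of the 7 members that were higher by at least 1 before the step, with a DMSO change of 1.01 at 12 hpa and -2.91 at 24 hpa. Sc4wPfr_569.g11135.t1 had 262, 44.4 and 215 CPM in DMSO at 0 hpa and 29.9, 15.7 and 16 CPM at 24 hpa. Under UNC0379 it had 224, 230.4 and 10.8 CPM at 0 hpa and 11.4, 9.19 and 6.81 CPM at 24 hpa, and every UNC0379 library of 24 hpa was below every DMSO library of that time. DMSO 0 hpa replicate 2 was low in this transcript, at 44.4 CPM, but still above the 24 hpa libraries.

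MSTRG.17119.1 had 99.9, 65.6 and 54.7 CPM in DMSO at 0 hpa and 17.5, 2.24 and 1.6 CPM at 24 hpa, and 6.87, 12.3 and 6.81 CPM under UNC0379 at 24 hpa. Sc4wPfr_1001.g5040.t1 had 168, 46.6 and 167 CPM in DMSO at 0 hpa, 34.9, 11.2 and 9.6 CPM at 24 hpa, and 13.7, 7.66 and 0 CPM under UNC0379 at 24 hpa. Sc4wPfr_952.1.g9528.t1 had 105, 38.1 and 78.5 CPM in DMSO at 0 hpa, 15, 11.2 and 1.6 CPM at 24 hpa, and 4.58, 9.19 and 0 CPM under UNC0379 at 24 hpa. In all 3, the 24 hpa libraries of both treatments lay below every DMSO library of 0 and 12 hpa. Fitted DMSO changes between 0 and 24 hpa were -3.38 (SE 0.70), -2.73 (SE 0.67) and -3.0 (SE 0.59), in this order, and fitted UNC0379 changes were -2.72 (SE 0.69), -2.98 (SE 0.84) and -3.01 (SE 0.68). Without the library labelled UNC0379 0 hpa replicate 3 the latter were -3.25 (SE 0.52), -3.52 (SE 0.66) and -3.57 (SE 0.49).

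**Figure D3:**
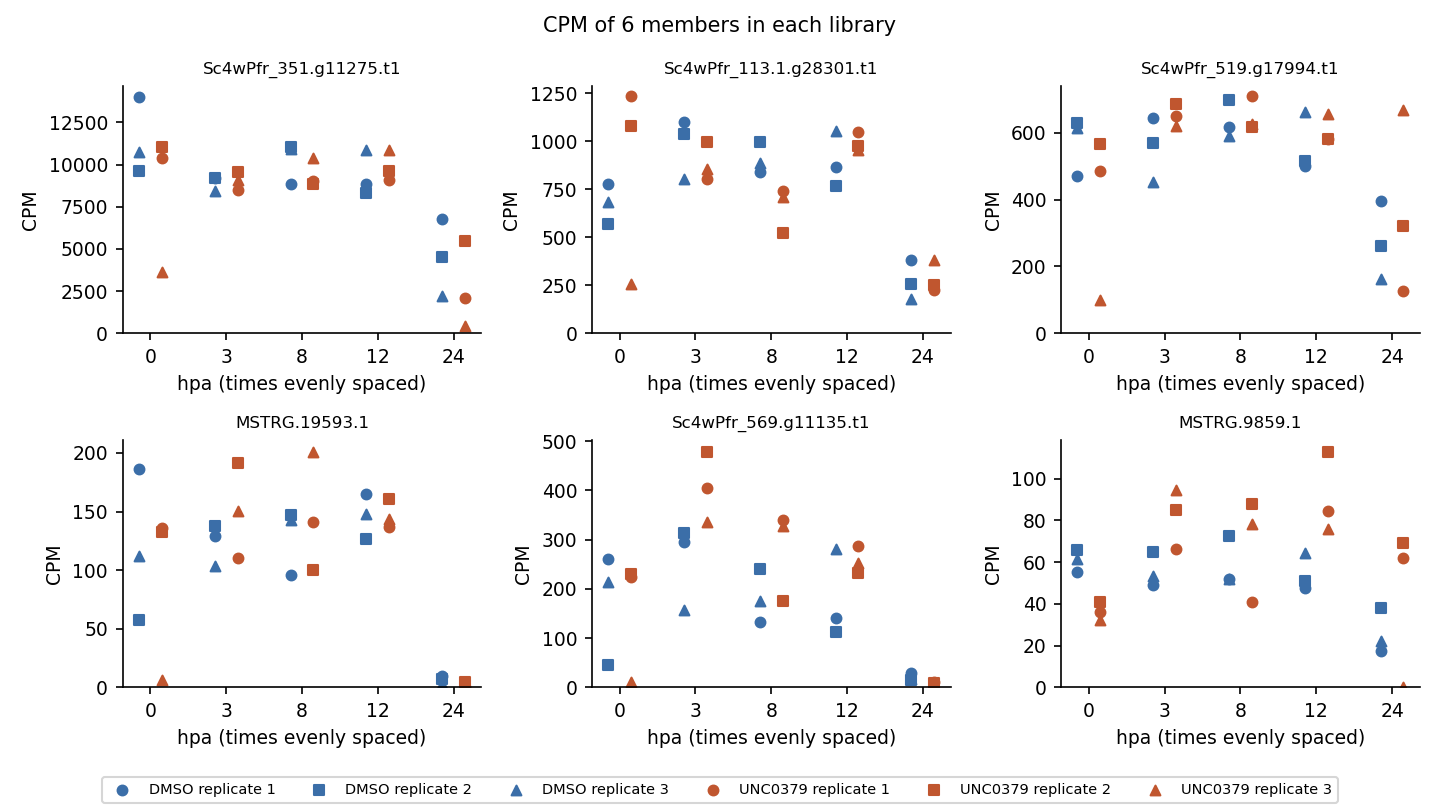
CPM (vertical axes, from 0) of 6 members in each library, by hours postamputation, with a point per library. The library labelled UNC0379 0 hpa replicate 3 lies near or below the 24 hpa libraries in 5 of the 6, for example at 6.17 CPM for MSTRG.19593.1, and close to its own group in MSTRG.9859.1, at 32.4 CPM.

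Under UNC0379, 2 members had no count in any 24 hpa library. Sc4wPfr_730.g15320.t1 had 64, 47.4 and 1.54 CPM under UNC0379 at 0 hpa and 60.5, 38.2 and 34.7 CPM at 12 hpa, and in DMSO 31.5, 10.6 and 33.6 CPM at 0 hpa and 2.49, 2.24 and 0 CPM at 24 hpa. With 3 counts over the group as the floor, its pooled UNC0379 level at 24 hpa was at least 14.5-fold lower than at 0 hpa, or at least 22.6-fold lower than in replicates 1 and 2 alone. MSTRG.6023.1 had 4, 19.6 and 1.54 CPM under UNC0379 at 0 hpa, from 15 counts in all, which makes it at least 3.51-fold lower on the same floor, or at least 5.19-fold lower than in replicates 1 and 2 alone. In DMSO it had 10.5, 23.3 and 26.6 CPM at 0 hpa and 4.99, 0 and 1.6 CPM at 24 hpa. At the other end, MSTRG.9859.1 was the member with a UNC0379 change above 0 at 24 hpa. It had 55.2, 65.6 and 61.7 CPM in DMSO at 0 hpa and 17.5, 38.2 and 22.4 CPM at 24 hpa, but 36, 40.8 and 32.4 CPM under UNC0379 at 0 hpa and 61.8, 69 and 0 CPM at 24 hpa. Replicates 1 and 2 of UNC0379 at 24 hpa were thus above every DMSO library of that time, while the shallow replicate 3 had no count. Its fitted 24 against 0 hpa change was -1.09 (SE 0.39) in DMSO and 0.56 (SE 0.39) under UNC0379, or 0.49 (SE 0.43) without the library labelled 0 hpa replicate 3.

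The library labelled UNC0379 0 hpa replicate 3 was below the other libraries of 0 hpa in most members. Against the mean of replicates 1 and 2 of its own group, the median difference over members was -2.03 on the log2 scale, with 91 of 103 at -1 or below and 0 at 1 or above. The median over all 3325 transcripts was 0.03, with 12.6% at -1 or below. Other groups of transcripts lay nearer to replicates 1 and 2. The 215 other transcripts with a DMSO change of -1 or below at 24 hpa had a median of -0.54, the 2121 within 0.5 of no change had 0.12, and the 106 with a change of 1 or above had 0.31. The library was below every DMSO 0 hpa library in 100 members, against 40.3% of the 3325, and below all 18 libraries of 3, 8 and 12 hpa in 94 members, against 21% of the 3325. It was below replicates 1 and 2 of its own group in 98 members, against 39.2%. It lay within the range of the DMSO 24 hpa libraries in 67 members, below that range in 24 and above it in 12. That range was wide, and its position was not counted over the 3325, so nothing is read from these counts. Across the 103 members, its difference from replicates 1 and 2 went with the DMSO change at 24 hpa (Pearson's r = 0.65, across transcripts that share these libraries). The rule used that DMSO change and bounded the group mean that this library enters, and r was not computed over the 3325. Nothing is read from this r. The labels hold nothing on this library beyond its group and number, and what its levels come from was not tested. DMSO 0 hpa replicate 2 had 53.2% of its reads unaligned, against 16.5% and 18.3% in replicates 1 and 3. It was also the lowest of its group in 70 members, against 50.3% of the 3325. Against the other 2 it was at -1 or below in 15 members (14.6%), against 8.06% of the 3325. This was not particular to the members, since it was so in 24.7% of the 215 other transcripts. The median difference was -0.57 in these 215 and -0.43 in the members.

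The rule limited the UNC0379 levels only by their distance from DMSO, so the time course under UNC0379 was bounded but not fixed by it. The median UNC0379 change at 24 against 0 hpa was -1.56, with 72 of 103 members at -1 or below and 102 below 0. Of the 3325, 16.3% were at -1 or below and 60.8% below 0. Without the library labelled UNC0379 0 hpa replicate 3 the median was -1.97, with 86 members at -1 or below, against 20.1% of the 3325. The same library raised the apparent early changes. With it the median UNC0379 changes at 3, 8 and 12 hpa were 0.67, 0.44 and 0.47, and without it they were 0.28, 0.05 and 0.09, next to DMSO medians of 0.10, 0.07 and 0.13. The time limits of the rule, asked of UNC0379 libraries in place of DMSO, were met by 9 members with all libraries (3.34% of the 3325 met them) and by 72 members without that library (11.7%). Across members, the UNC0379 change without that library went with the DMSO change (r = 0.72, n = 103 transcripts), with no test, as the rule ties both.

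**Figure D4:**
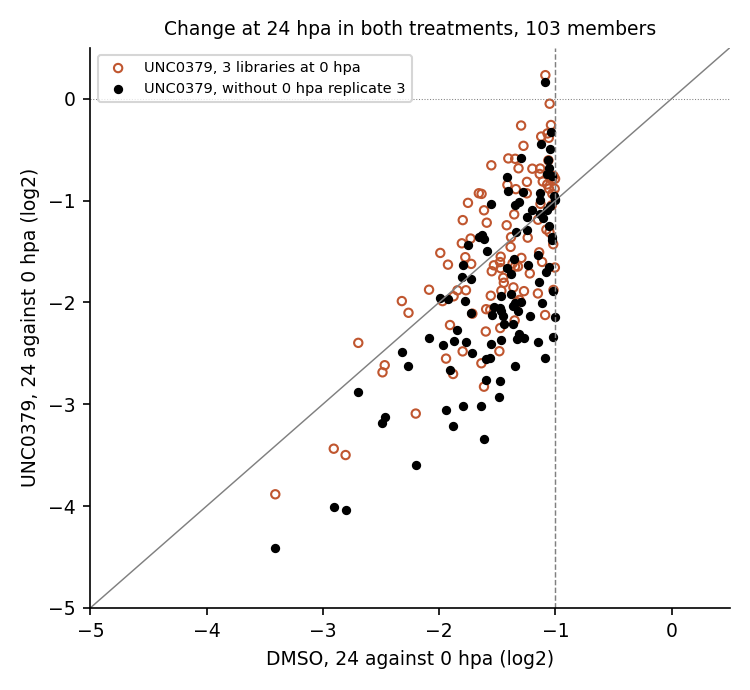
Change at 24 against 0 hpa under UNC0379 (vertical axis, log2 with 5 CPM added) against the same change in DMSO (horizontal axis) for 103 members, with open circles for all libraries and filled circles without the library labelled UNC0379 0 hpa replicate 3. The solid line marks equal changes and the dashed line the rule's limit of -1, and 72 open and 86 filled circles lie at -1 or below on the vertical axis.

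How far apart the 24 hpa libraries lay from those of earlier times was read library by library. In DMSO, the 24 hpa libraries were all below every 3 hpa library in 102 members, below every 8 hpa library in 97 and below every 12 hpa library in 100, against 20.1%, 19% and 19.9% of the 3325. The rule itself asked this against 0 hpa, which 20.8% of the 3325 met. It used the means of the other groups, so nothing is read from these counts. The 3 members that overlapped between 12 and 24 hpa were Sc4wPfr_189.g28501.t1, Sc4wPfr_353.g28174.t1 and Sc4wPfr_9.1.g18768.t1, named for their overlap. Sc4wPfr_189.g28501.t1 had 39.3, 17 and 51.4 CPM in DMSO at 12 hpa and 32.4, 4.49 and 6.4 CPM at 24 hpa, so that replicate 1 of 24 hpa lay above replicate 2 of 12 hpa. Under UNC0379, every 24 hpa library was below every 3, 8 and 12 hpa library in 94, 87 and 91 members, against 26.3%, 26.3% and 24.7% of the 3325. Against UNC0379 at 0 hpa the count was 12 members (13.3% of the 3325), and 93 members against replicates 1 and 2 alone (29.8%).

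The test across all transcripts was edgeR's quasi-likelihood test with Benjamini-Hochberg adjustment over the 5046 transcripts that passed its filter, all 103 members among them. For DMSO at 24 against 0 hpa, 54 members were called lower, beside 5.35% of all transcripts. For UNC0379 the count was 49, beside 9.12%. Of these, 30 members were called in both, 24 in DMSO alone, 19 under UNC0379 alone, and 30 in neither. These overlaps are no test of a difference between the treatments, which the interaction term gives. Against 12 hpa, 66 members were called lower in DMSO, beside 4.04%, and 74 under UNC0379, beside 10.2%. Because the rule used these groups, these counts say nothing beyond it. Median fitted changes over members were -1.64 in DMSO and -1.63 under UNC0379 against 0 hpa, and -1.89 and -2.03 against 12 hpa. Over all transcripts tested they were -0.06, -0.09, -0.02 and -0.05.

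These counts leaned on single libraries. Without DMSO 24 hpa replicate 3, 9 members were called lower in DMSO at 24 against 0 hpa (1.79% of all), although the median fitted change was -1.35. Without DMSO 0 hpa replicate 3 the count was 22 (2.82%). Without the library labelled UNC0379 0 hpa replicate 3 it was 79 in DMSO (7.19%), a comparison that it enters only through the shared fit, and 78 under UNC0379 (12.7%), with a UNC0379 median of -2.06. Without UNC0379 0 hpa replicate 2, 11 members were called under UNC0379 (3.08%), and without UNC0379 24 hpa replicate 3 the count was 26 (5.44%). Then 3 libraries were left out together, the one labelled UNC0379 0 hpa replicate 3 and replicate 3 of both treatments at 24 hpa. With these out, 50 members were called in DMSO (5.34%) and 78 under UNC0379 (13.2%). DMSO 24 hpa replicate 3 was the lowest of its group in 74 members, against 39.4% of the 3325, and UNC0379 24 hpa replicate 1 was below replicate 2 in 85, against 53.5%.

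No member was called between UNC0379 and DMSO at 24 hpa, beside 5.31% of all transcripts called lower and 2.08% called higher. At an unadjusted p under 0.05 there were 2 of 103 by edgeR, beside 18.3% of all transcripts, and DESeq2 and limma-voom called 0. Without the shallow UNC0379 24 hpa replicate 3, edgeR called 1 member higher under UNC0379, MSTRG.9859.1 at 1.34 on the log2 scale, beside 1.68% of all transcripts. Without UNC0379 24 hpa replicate 2 it called 7 members lower, beside 324 transcripts in all, with the share given further below. The rule had left out transcripts that differed by 1 or more in size. The 0 called with all libraries is therefore not a finding on the inhibitor. The median of the fitted UNC0379 against DMSO difference at 24 hpa was 0.06 over members and -0.02 over all transcripts. The 24 hpa libraries of both treatments overlapped in all but 4 members, named for that. UNC0379 was wholly below DMSO in Sc4wPfr_569.g11135.t1 and MSTRG.1498.1, and wholly above in Sc4wPfr_1152.g30248.t1 and Sc4wPfr_363.3.g30509.t1. In the shallow UNC0379 24 hpa replicate 3 these members had 1, 3, 2 and 4 reads, in this order. There 1 read was worth 6.81 CPM, so the separation rests on few reads. The 2 members below and the 2 above stand beside 12.8% and 5.92% of the 3325.

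For the difference between the treatments in their 24 against 0 hpa changes, the interaction term in edgeR, 0 members were called, beside 1.9% of all transcripts lower and 0.892% higher. At an unadjusted p under 0.05 it was 1 of 103, beside 14.6% of all transcripts, limma-voom called 0, and DESeq2 called 1, MSTRG.9859.1, with a fitted difference of 1.67. Without UNC0379 24 hpa replicate 3, edgeR called the same member, at 1.93, beside 1.41% of all transcripts higher. With 3 libraries left out together, it also called 4 members lower, beside 236 of 5226 transcripts. With all libraries, the fitted change was more negative under UNC0379 than in DMSO in 49 of 103 members. This split leaned on the library labelled UNC0379 0 hpa replicate 3, and it is not given without it. On the scale of the rule, the median UNC0379 change was -1.56 with that library and -1.97 without it, next to -1.39 in DMSO. A test missing its threshold does not show that the treatments act alike here. Libraries were simulated with the same biological coefficient of variation, 22.6%, for all transcripts. In these, 28 of 100 transcripts with a 2-fold change were recovered in the DMSO comparison of 24 with 0 hpa. With a 4-fold change it was 67 of 100. The simulation held no spread particular to a transcript and no library that stood apart, so these rates may not hold for the members. No treatment difference and no interaction was simulated, so the rates do not apply to those tests.

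At 3 hpa the members tended to be higher under UNC0379 than in DMSO. The median difference was 0.34, with 85 of 103 above 0, where the 3325 had a median of 0.05 and 56.3% above 0. It was 0.18 at 8 hpa and 0.12 at 12 hpa, where the 3325 had 0.10 and 0.02. At 24 hpa it was -0.20, with 66 of 103 (64.1%) below 0. This was near the 3325, which had a median of -0.14 and 59.4% below 0. The rule bounded the mean of the differences at 3, 8 and 12 hpa and the difference at 24 hpa, so these values are given without a test.

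Where a gene model held a further transcript with a group mean of at least 5 CPM, the transcripts could be set side by side. MSTRG.15083.1 had 31.5, 36 and 30.8 CPM in DMSO at 0 hpa and 15, 11.2 and 12.8 CPM at 24 hpa. The other transcripts of its model, MSTRG.15083.3 and MSTRG.15083.4, had DMSO changes of -0.14 and -0.31 at 24 hpa. MSTRG.15083.3 had DMSO means of 24.8 CPM at 0 hpa and 22.1 CPM at 24 hpa. MSTRG.15083.4 had only 4.09 and 2.35 CPM, below the 5 CPM added, so its change is understated and nothing is read from it. MSTRG.1863.3 had 44.7, 23.3 and 26.6 CPM in DMSO at 0 hpa, 53.8, 62.2 and 55.8 CPM at 12 hpa and 19.9, 11.2 and 3.2 CPM at 24 hpa. MSTRG.1863.2, of the same model, was lower already at 8 hpa, with a change of -0.95, and had -1.32 at 24 hpa. Sc4wPfr_639.g22936.t2 had 14.5, 21.2 and 8.41 CPM in DMSO at 0 hpa and 4.99, 4.49 and 0 CPM at 24 hpa, a change of -1.27, and Sc4wPfr_639.g22936.t1 of the same model had -0.65. Transcripts of 1 model share sequence, and reads that fit more than 1 of them may have been left uncounted.

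Among the 65 members with scaffold names, 5 scaffold prefixes carried 2 members each. In 1 of them, Sc4wPfr_1163, the members had consecutive model numbers. Sc4wPfr_1163.g25146.t1 had 104, 48.7 and 111 CPM in DMSO at 0 hpa and 39.9, 38.2 and 43.2 CPM at 24 hpa, and 84, 67 and 81.7 CPM under UNC0379 at 0 hpa. Sc4wPfr_1163.g25147.t1 had 106, 55 and 88.3 CPM in DMSO at 0 hpa and 34.9, 13.5 and 6.4 CPM at 24 hpa, and 60.0, 57.2 and 18.5 CPM under UNC0379 at 0 hpa. These neighbours by number therefore differed at UNC0379 0 hpa replicate 3, which was at its group's level in the former and low in the latter.

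The limits of the rule cut through a continuous range. Just inside the limit on the 24 hpa change were MSTRG.21926.1 and Sc4wPfr_1903.g23134.t1, both at -1.0, and just outside were Sc4wPfr_1195.g32326.t1, at -0.998, and Sc4wPfr_1201.g23947.t1, at -0.977. MSTRG.21926.1 had 227, 243 and 205 CPM in DMSO at 0 hpa and 119.7, 146 and 64 CPM at 24 hpa, and Sc4wPfr_1903.g23134.t1 had 23.7, 36 and 26.6 and 15, 15.7 and 4.8 CPM. The groups of both were apart, as the rule asked. On the limit of -0.5 at 3, 8 and 12 hpa, MSTRG.4956.1 and Sc4wPfr_189.g28501.t1 were inside with lowest values of -0.49 and -0.48, and Sc4wPfr_595.g17959.t1 and Sc4wPfr_163.g17465.t1 outside with -0.53 each. MSTRG.4956.1 had 96, 57.1 and 74.3 CPM in DMSO at 0 hpa, 45.5, 54.6 and 57.2 CPM at 12 hpa and 32.4, 11.2 and 3.2 CPM at 24 hpa, so that every library of 12 hpa was below 2 of the 3 libraries of 0 hpa. On the size of the treatment difference at 24 hpa, MSTRG.1926.1 and Sc4wPfr_1001.g5040.t1 were inside with 0.99 and 0.96, and Sc4wPfr_706.2.g7994.t1 and Sc4wPfr_533.g13137.t1 outside with 1.06 and 1.12. MSTRG.1926.1 had 19.9, 6.73 and 3.2 CPM in DMSO and 0, 7.66 and 0 CPM under UNC0379 at 24 hpa, after 56.5, 25.4 and 35 CPM in DMSO at 0 hpa. On the level, Sc4wPfr_519.g17982.t1 and Sc4wPfr_106.g23587.t1 were inside with highest DMSO means of 31.1 and 31.4 CPM, and MSTRG.19448.1 and Sc4wPfr_134.g20115.t1 outside with 29.6 and 29.4 CPM. Sc4wPfr_519.g17982.t1 had 19.7, 8.46 and 30.8 CPM in DMSO at 0 hpa and 4.99, 2.24 and 1.6 CPM at 24 hpa, and Sc4wPfr_106.g23587.t1 had 13.1, 19 and 14 and 2.49, 6.73 and 1.6 CPM. At these levels a 24 hpa value rests on few reads in each library.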

How the data were processed

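3′ mRNA sequencing (QuantSeq, forward) was done on total RNA of regenerating tips, with 3 libraries for each of 10 groups of treatment and time. The authors deposited 1 table of raw counts per library, over 51290 transcripts. Trimmomatic, HISAT2 and HTSeq are listed among the tools in the submitters' processing notes, without versions. For the genome build, the annotation and the strandedness of counting, the sources used here state nothing. The 5 summary lines of HTSeq (unassigned reads) were kept out of library sums and tests.

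From these counts, CPM were computed with the library sum, and the rule was applied with a pseudocount of 5 CPM. Members and alternatives were chosen with earlier results of these data known. Counts were fitted with edgeR 4.0.16 (R 4.3.3) with TMM factors (0.902 to 1.10), filterByExpr, a coefficient for each group and a robust quasi-likelihood fit over all 30 libraries, with Benjamini-Hochberg adjustment over 5046 transcripts and a threshold of 0.05. The common biological coefficient of variation was 22.6%. Each SE printed with a fitted change was back-calculated as the size of the change over the square root of the test's F value. It is therefore approximate. The fit was tested on simulated data, where 5 false calls were made. limma 3.58.1 and DESeq2 1.42.0 served as alternatives, beside another scaling, other filters, a replicate block, only the libraries compared, and each library left out. Counting intervals and floors (3 counts) cover counting error only.

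Named members were the 6 with the highest DMSO level at 0 hpa, the 6 with the most negative 24 hpa change, the 2 with the least and the 2 with the most negative fitted UNC0379 change, those nearest a limit, and those with a further transcript of 5 CPM or more. Others are said to be chosen for their values. Lists by function were not used, since 0 identifiers had a name, and no sequences are shown.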

Additional observations from a re-analysis of the deposited data

How the results depend on the processing

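The number of members was 67 with a minimum of 50 CPM, and leaving out single libraries gave 70 (without DMSO 24 hpa replicate 3) to 219 (without DMSO 24 hpa replicate 1). With TMM-scaled CPM it was 83, of which 77 were among the 103, and with 10 CPM added 85, of which 77 were.

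Members called lower ranged, on leaving out 1 library, from 9 to 79 for DMSO 24 against 0 hpa, 8 to 82 for DMSO 24 against 12 hpa, 11 to 78 for UNC0379 24 against 0 hpa, 43 to 86 for UNC0379 24 against 12 hpa, 0 to 7 for UNC0379 against DMSO at 24 hpa, and 0 to 0 for the interaction. The 7 appeared without UNC0379 24 hpa replicate 2, beside 6.05% of all transcripts. In the same order, all transcripts called lower ranged from 96 to 385, 20 to 320, 165 to 694, 250 to 834, 212 to 324 and 50 to 170, and member medians from -2.06 to -1.35, -2.40 to -1.48, -2.72 to -1.25, -3.19 to -1.69, -0.87 to 0.45 and -0.74 to 0.49. The medians of both treatment comparisons thus took either sign.

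For UNC0379 24 against 0 hpa, limma-voom called 6 members and 220 transcripts in all, and a fit of only the libraries compared called 0 and 2. That fit called 37 members and 111 transcripts for UNC0379 24 against 12 hpa, 64 transcripts for UNC0379 against DMSO, and 3 for the interaction. With DMSO 24 hpa replicate 3, UNC0379 24 hpa replicate 3 and the library labelled UNC0379 0 hpa replicate 3 left out together, chosen after seeing the data, 50 members were called for DMSO and 78 for UNC0379 against 0 hpa. Then 1 member was lower under UNC0379 at 24 hpa (Sc4wPfr_856.g31462.t1) and 1 higher (MSTRG.9859.1 at 1.2). In the interaction MSTRG.9859.1 was again called higher (1.75), and 4 members were called lower, beside 236 of 5226 transcripts called lower in all. The 4 were MSTRG.23549.2, Sc4wPfr_1096.g19444.t1, Sc4wPfr_113.1.g28301.t1 and Sc4wPfr_856.g31462.t1. They were not set against the 236 of 5226 by a test, and nothing is read from them. No share of all transcripts called stands beside the calls at 24 hpa or beside MSTRG.9859.1 in the interaction, so nothing is read from these either. The cause of all these calls was not tested. The UNC0379 24 against 0 hpa change of Sc4wPfr_519.g17994.t1 took the other sign with DESeq2 (0.0461), upper-quartile scaling (0.0377) and at least 10 counts in 15 libraries (0.0159), and ranged from -0.72 (without UNC0379 24 hpa replicate 3) to 0.34 (without UNC0379 24 hpa replicate 1) on leaving out 1 library.

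With the replicate block, 60 members were called lower for DMSO (6.10% of all transcripts) and 51 for UNC0379 (10.2%) at 24 against 0 hpa, 68 (4.46%) and 80 (11.8%) against 12 hpa, and 0 in both treatment comparisons. The deviations of same-numbered libraries from their group means had correlations of -0.06, 0.07 and 0.10 between DMSO 0 and 24 hpa, of -0.05, 0.42 and 0.29 between UNC0379 0 and 24 hpa, and of 0.03, 0.13 and 0.35 between both treatments at 24 hpa. Since some pairs were not above 0.1 and no label ties the numbers, the libraries were not treated as pairs. Depth limits transcripts near 30 CPM, at which the shallowest library, with 6.81 CPM per count, holds few reads.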

Other observations

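Without its limits on UNC0379, the rule would have held 131 transcripts, since 28 were left out by them. At 24 hpa, 18 of the 28 were lower under UNC0379 than in DMSO by 1 or more on the log2 scale and 4 were higher by as much. In the mean difference at 3, 8 and 12 hpa, 8 were lower and 1 higher by 1 or more, and at 0 hpa 5 were lower and 0 higher. A transcript may count under more than 1 limit, and these counts were not tested.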
